A study of Mus musculus with 6 samples.

Results

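The genes for the immunoglobulin heavy chain, the kappa and lambda light chains and the joining chain were followed in mouse thymus through every probe set whose platform annotation carried symbols of these loci only. A probe set is the group of short probes that measures 1 transcript on an Affymetrix array. Of 45101 probe sets in the table, 56 met this rule, with 23 for the heavy chain, 28 for kappa, 4 for lambda and 1 for the joining chain. They were chosen by symbol and not by measured value, but earlier results of these data were known when members and gene lists were chosen. RNA came from snap-frozen thymus of adult female F1 hybrids. The AKR hybrids are (AKR/J x FVB/NJ)F1 mice, measured on 3 arrays, and the DBA hybrids are (DBA/2J x FVB/NJ)F1 mice, likewise measured on 3. No allele or agent was added in either cross, and both carry 1 FVB/NJ parent, so each mouse holds an FVB/NJ copy of every autosomal gene beside its AKR/J or DBA/2J copy. Whether each array stands for its own animal is not in the labels, and p-values here therefore reflect only sample-to-sample spread, which may be technical.

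An antibody is built from heavy and light chains, each with a variable region that binds antigen and a constant region that sets the class. The variable region is put together in developing B cells from V, D and J segments by the Rag recombinase, and the heavy chain constant gene in use, Ighm, Ighg3 or Igha among others, makes the antibody IgM, IgG3 or IgA. The joining chain, encoded by Jchain, links the units of secreted IgM and IgA. The thymus mainly makes T cells, yet it holds a small resident population of B cells and some plasma cells, and developing T cells can carry transcripts of unrearranged or partly rearranged heavy chain genes.

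The thymus label was borne out by its markers. The thymocyte markers tested, 8 genes, lay between 8.30 and 13.11 on the log2 scale, and those of thymic epithelium, 7 genes, between 6.54 and 12.90. The arrays correlated at 0.994 to 0.996 within a cross and at 0.984 to 0.989 between crosses. DBA replicate 1 stood apart in muscle genes. The summed linear intensity of 4 skeletal muscle markers was 6508 on that array, 276 to 615 on the other DBA arrays and 205 to 999 on the AKR arrays. Glycam1, expressed by lymph node high endothelial venules, was at 7.83, 7.69 and 7.84 in the AKR hybrids and at 8.40, 4.74 and 4.76 in the DBA hybrids, so that DBA replicate 1 lay with the AKR arrays and DBA replicates 2 and 3 lay apart. Glycam1 is named after its values were seen. The total counts of called immunoglobulin probe sets, and the main counts of called B cell and plasma cell genes, are also given without DBA replicate 1. Leaving that array out does not balance Glycam1, since the DBA arrays that remain are the low ones.

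Most immunoglobulin probe sets that differed were higher in the AKR hybrids, while the constant gene of IgA was higher in the DBA hybrids. Each difference is the mean of the AKR arrays less that of the DBA arrays, in log2 units, with its standard error (SE), and a call means an adjusted p under 0.05 in limma (Benjamini-Hochberg over 27385 probe sets). A filter on dim values kept 36 of the 56, and of these 16 were called higher in the AKR hybrids, 3 were called higher in the DBA hybrids and 17 were not called. Over all probe sets tested, 27.2% were called, with 12.2% higher in the AKR hybrids and 15.0% higher in the DBA hybrids. That order turned under other scalings, with 4292 calls higher in the AKR hybrids and 3758 higher in the DBA hybrids after quantile normalization, and 4258 and 3721 after 75th percentile scaling, in place of 3338 and 4111. The immunoglobulin counts were 17 and 2 after the first and 17 and 3 after the second. Among the immunoglobulin probe sets as deposited the shares were 44.4% and 8.33%. Their median difference was 0.43, against 0.01 over all tested probe sets. These shares and medians describe the 36 that passed the filter, 1 of which passed through its AKR arrays alone. With no filter, 18 of all 56 were called higher in the AKR hybrids (7.34% over all 45037) and 3 higher in the DBA hybrids (9.36%), and the median difference over the 56 was 0.29. In bulk tissue, a larger number of expressing cells and more RNA per cell cannot be told apart. Whether the probes match the AKR/J and DBA/2J copies of these genes equally well was not tested.

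The groups did not overlap for 22 of the 36 (61.1%, against 44.7% of all tested probe sets). Of these 22, 20 were higher in the AKR hybrids. Of the 12253 tested probe sets of any kind without overlap, 6145 were higher in the AKR hybrids. Without DBA replicate 1, 13 immunoglobulin probe sets were called higher in the AKR hybrids and 0 higher in the DBA hybrids. The count of 16 fell to 9 without AKR replicate 2 and to 9 without AKR replicate 3. Over all tested probe sets, calls higher in the AKR hybrids also fell, from 3338 to 2198 without AKR replicate 2 and 2285 without AKR replicate 3. Without DBA replicate 1 they were 2952. The 3 calls in the DBA direction, all Igha, went to 0 without AKR replicate 1. Over all tested probe sets, calls higher in the DBA hybrids went from 4111 to 3305 without AKR replicate 1 and to 3099 without DBA replicate 1. Without DBA replicate 2 no Igha probe set was called, and another member, the Igkc probe set 1452417_x_at, was.

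**Figure D1:**
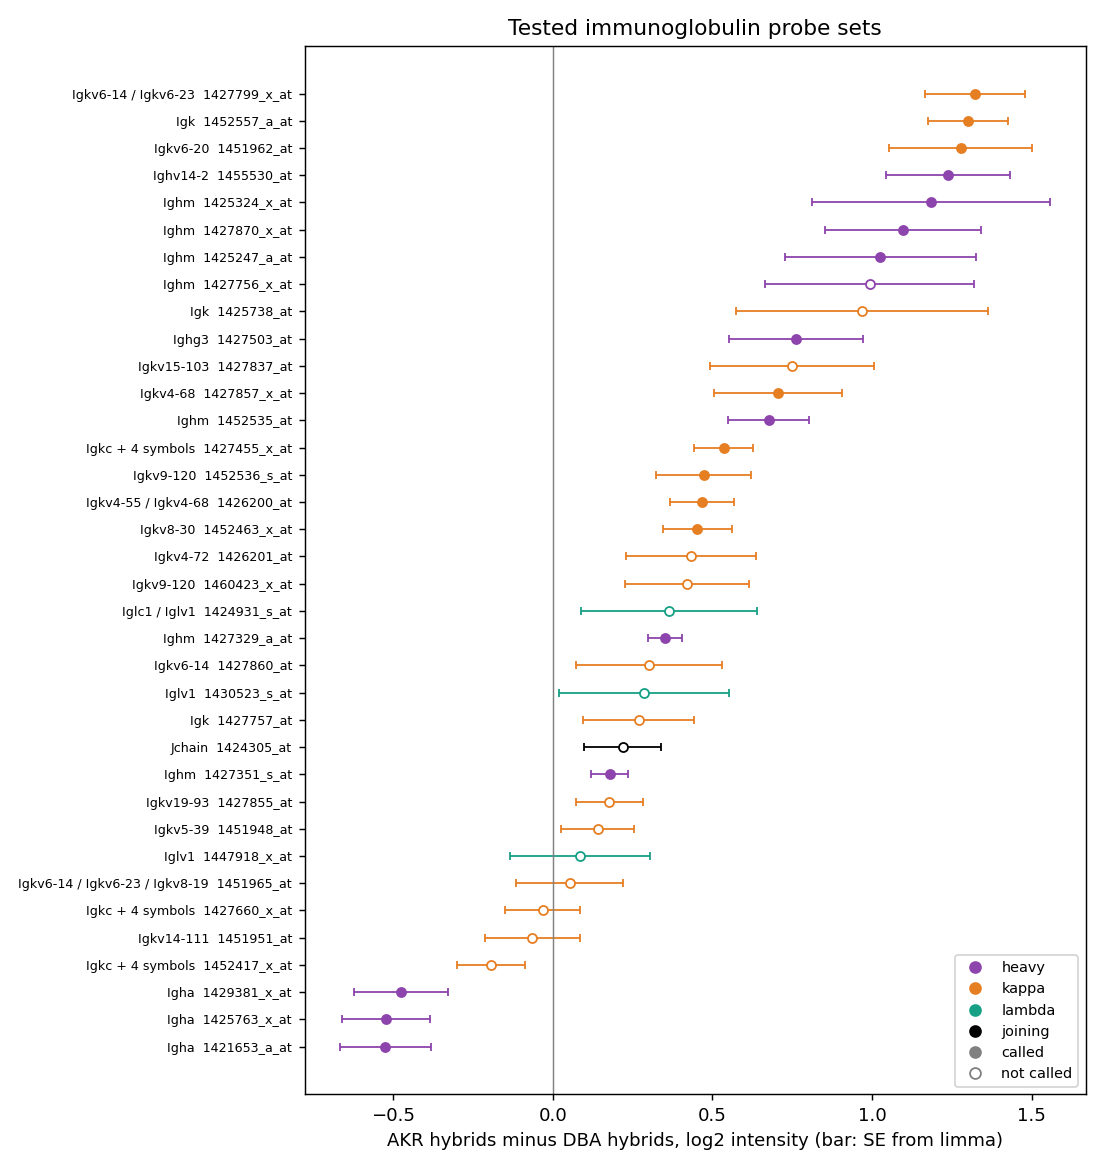
Difference between the crosses for the 36 tested immunoglobulin probe sets, as AKR hybrids minus DBA hybrids in log2 intensity on the x axis with the SE from limma as bars, coloured by locus and filled where called. The 3 Igha probe sets lie at the lower end (-0.52 to -0.47), and 7 called probe sets reach at least 2-fold in the AKR direction.

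Ighm encodes the constant region of IgM, the first class a B cell makes. Its probe set 1427329_a_at was at 12.10, 12.20 and 12.16 in the AKR hybrids and at 11.71, 11.82 and 11.87 in the DBA hybrids. Every AKR array lay above every DBA array. The difference was 0.35 ± 0.05 (SE), or 1.28-fold (adjusted p = 0.00173, limma), and it was called under all 17 alternatives run for it. A brighter Ighm probe set, 1427351_s_at, was at 13.08, 13.19 and 13.07 in the AKR hybrids and at 12.83, 12.94 and 13.04 in the DBA hybrids. Its groups nearly touched without overlapping, and the difference was 0.18 ± 0.06 (adjusted p = 0.0484, limma). That call was lost without AKR replicate 1 (0.0684), AKR replicate 2 (0.153), AKR replicate 3 (0.0661), DBA replicate 1 (0.137) or DBA replicate 2 (0.109).

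Igha, the constant gene of IgA, the class secreted at mucosal surfaces, went the other way on all 3 of its probe sets. Probe set 1421653_a_at was at 11.22, 11.60 and 11.52 in the AKR hybrids and at 12.21, 12.06 and 11.64 in the DBA hybrids. DBA replicates 1 and 2 stood well above all AKR arrays, and DBA replicate 3 lay just above them. The difference was -0.52 ± 0.14, or 1.44-fold higher in the DBA hybrids (adjusted p = 0.0242, limma). Probe set 1425763_x_at read 10.90, 11.30 and 11.25 against 11.88, 11.76 and 11.38, and differed by -0.52 ± 0.14 (adjusted p = 0.0216, limma). Probe set 1429381_x_at read 10.70, 11.14 and 11.00 against 11.69, 11.48 and 11.10, and differed by -0.47 ± 0.15 (adjusted p = 0.0420, limma). In the last of these the groups overlapped, since DBA replicate 3 fell below AKR replicate 2. All 3 probe sets have names that mark possible matches to several transcripts, and they rank the arrays of each cross in the same order, so they are not separate evidence. DBA replicate 1, the array with the highest muscle marker sum, was the highest on each of them, and the part of that tissue in the result was not tested.

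The Igha differences kept their sign but not their calls as arrays were left out. Without DBA replicate 1 the differences were -0.40, -0.42 and -0.34 with adjusted p = 0.0698, 0.0647 and 0.117 in limma, in the order above. Without AKR replicate 1 they were -0.41, -0.39 and -0.35 (adjusted p = 0.0676, 0.0557 and 0.115, limma). Without DBA replicate 2 the adjusted p was 0.0844, 0.0772 and 0.118 (limma), and without AKR replicate 3 the last probe set was not called (0.0745, limma). With robust variance estimation none of the 3 was called (0.0707, 0.0530 and 0.0919, limma).

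Jchain, whose product joins both IgM and IgA, was at 10.34, 10.75 and 10.75 in the AKR hybrids and at 10.47, 10.50 and 10.21 in the DBA hybrids. AKR replicate 1 lay among the DBA arrays. The difference of 0.22 ± 0.12 did not pass (adjusted p = 0.206, limma). Without AKR replicate 1 it was 0.36 and passed (adjusted p = 0.0296, limma).

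**Figure D2:**
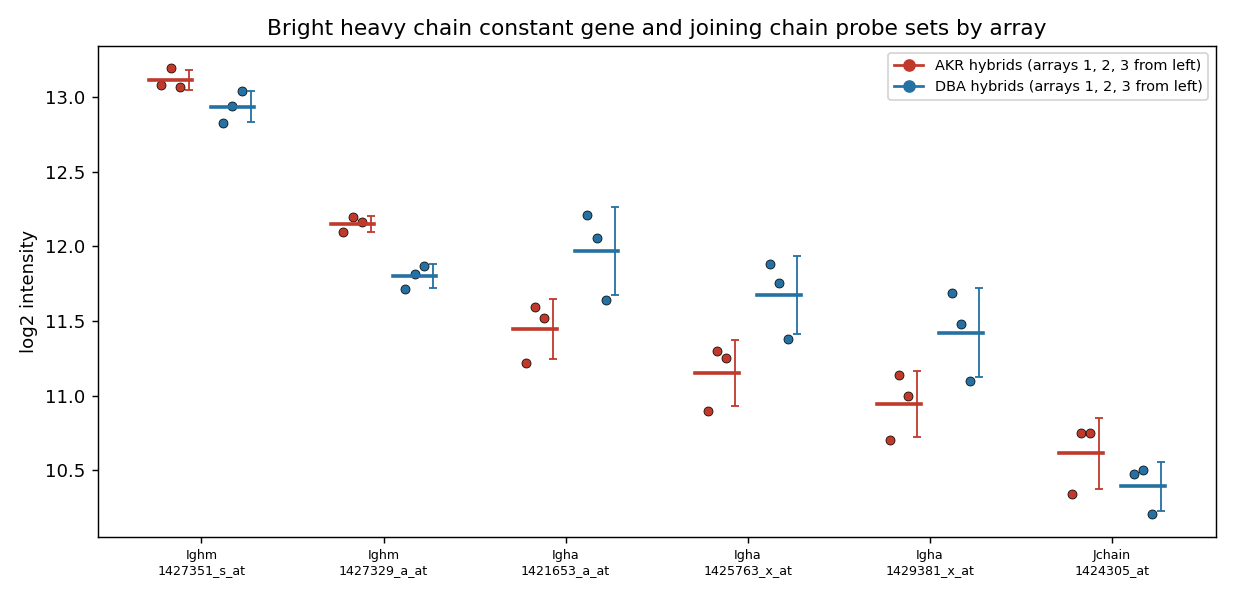
Log2 intensity (y axis) of the bright Ighm, Igha and Jchain probe sets on each array, with the 3 AKR arrays in red and the 3 DBA arrays in blue, lines at the mean of each cross and bars of 1 SD. Ighm sits higher in the AKR hybrids on both probe sets and Igha higher in the DBA hybrids on all 3, with DBA replicate 3 the lowest DBA array for Igha.

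The Ighm symbol also covers dimmer probe sets, 5 of which were tested, and these moved further than the bright ones. The annotation names the gene of the sequence behind a probe set and does not say which part of a rearranged transcript the probes match. Probe set 1427870_x_at was at 8.61, 8.74 and 9.37 in the AKR hybrids and at 8.31, 7.71 and 7.41 in the DBA hybrids, and differed by 1.10 ± 0.24 (2.14-fold, adjusted p = 0.0104, limma). Probe set 1425247_a_at was at 7.47, 7.49 and 8.44 against 7.36, 6.57 and 6.39, and differed by 1.03 ± 0.30 (adjusted p = 0.0317, limma). In both, AKR replicate 3 stood above the other AKR arrays and DBA replicate 1 came closest to the AKR hybrids. Probe set 1425324_x_at was at 7.01, 7.12 and 8.06 against 6.92, 6.31 and 5.41, and differed by 1.18 ± 0.37 (2.27-fold, adjusted p = 0.0426, limma). Probe set 1427756_x_at was at 6.86, 6.90 and 8.04 against 6.78, 6.25 and 5.79, and its difference of 0.99 ± 0.33 just missed (adjusted p = 0.0501, limma). The 4 probe sets rank the arrays of each cross in the same order, so they may share targets and are not separate measurements.

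The calls of these Ighm probe sets rested on few arrays. Probe set 1425247_a_at was not called without AKR replicate 3 (0.71, adjusted p = 0.0782, limma), DBA replicate 2 (0.102) or DBA replicate 3 (0.114). Probe set 1425324_x_at was not called without AKR replicate 2 (0.0696), AKR replicate 3 (0.122), DBA replicate 2 (0.0922) or DBA replicate 3 (0.123). Its difference without DBA replicate 3 was 0.78. Probe set 1427756_x_at was called without AKR replicate 1 (0.0390) or DBA replicate 1 (0.0293). Probe set 1427870_x_at was called with any single array left out. Ighm probe set 1452535_at showed another order, at 7.45, 7.69 and 7.34 against 6.96, 6.88 and 6.62. It differed by 0.68 ± 0.13 (1.60-fold, adjusted p = 0.00457, limma), and AKR replicate 3 was here the lowest AKR array.

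Of 4 probe sets for Ighg3 alone, the constant gene of IgG3, 1 was bright enough to be tested. Probe set 1427503_at was at 6.46, 7.10 and 7.41 in the AKR hybrids and at 6.15, 6.14 and 6.39 in the DBA hybrids. AKR replicate 1 lay just above the DBA arrays. The difference was 0.76 ± 0.21 (1.70-fold, adjusted p = 0.0256, limma), and it was not called without AKR replicate 2 (0.0852), AKR replicate 3 (0.0690), DBA replicate 1 (0.0644) or DBA replicate 2 (0.0822).

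**Figure D3:**
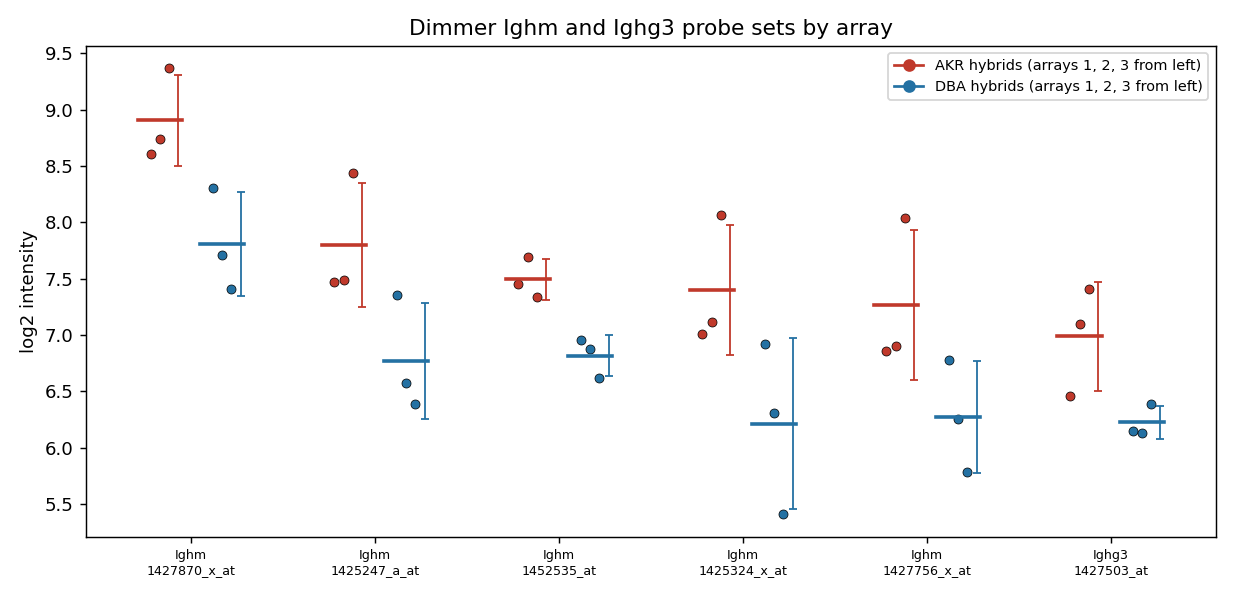
Log2 intensity (y axis) of 5 dimmer Ighm probe sets and the tested Ighg3 probe set on each array, with AKR arrays in red, DBA arrays in blue, lines at the mean of each cross and bars of 1 SD. In 4 Ighm probe sets AKR replicate 3 is the highest array and DBA replicate 3 the lowest, while in 1452535_at AKR replicate 3 is the lowest AKR array.

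Variable segments of the heavy chain were sparsely covered: the symbols named 2 of the 120 heavy V segments in the RefSeq gene table, against 17 of 102 for kappa and 1 of 3 for lambda. Ighv14-2, a heavy chain V segment, was at 7.47, 7.86 and 8.39 in the AKR hybrids and at 6.66, 6.64 and 6.72 in the DBA hybrids. The DBA arrays lay close together (SD 0.04, n = 3) and the AKR arrays were spread more widely (SD 0.46, n = 3). The difference was 1.24 ± 0.19 (2.36-fold, adjusted p = 0.00191, limma), and the call was lost only without sharing of variance between probe sets, among 18 alternatives (adjusted p = 0.0600). The other 4 probe sets that name a heavy V segment also name Ighm, and none of them passed the filter on dim values.

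Kappa light chain probe sets were higher in the AKR hybrids where they were called, at 8 of 20 tested, with 0 called higher in the DBA hybrids, against 12.2% and 15.0% of all tested probe sets. The 8 include 1427799_x_at, which passed the filter through its AKR arrays alone. The median kappa difference was 0.44. The largest differences came from dim probe sets. The probe set annotated to both Igkv6-14 and Igkv6-23 (1427799_x_at) was at 5.73, 5.95 and 5.61 in the AKR hybrids and at 4.63, 4.59 and 4.11 in the DBA hybrids. It was tested only because its AKR arrays passed the filter, so its call is not independent of that filter. Its 2.50-fold (1.32 ± 0.16, adjusted p = 0.000445, limma) is not an exact size. A probe set with the locus symbol Igk (1452557_a_at) was at 6.60, 6.87 and 6.60 against 5.46, 5.19 and 5.52. It differed by 1.30 ± 0.12 (2.46-fold, adjusted p = 0.000136, limma), with the smallest adjusted p of the 36. Igkv6-20, a kappa V segment, was at 6.94, 6.70 and 7.03 against 5.76, 5.04 and 6.05, and differed by 1.28 ± 0.22 (adjusted p = 0.00344, limma). In all 3 every AKR array lay above every DBA array, and for Igkv6-20 DBA replicate 2 stood below the other DBA arrays.

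Related segments did not all follow. Igkv6-14 alone (1427860_at) was at 7.34, 7.50 and 7.24 in the AKR hybrids and at 7.50, 6.45 and 7.24 in the DBA hybrids. It differed by 0.30 ± 0.23 and was not called (adjusted p = 0.353, limma), with DBA replicate 2 as the low array. The probe set shared by Igkv6-14, Igkv6-23 and Igkv8-19 (1451965_at) differed by 0.05 ± 0.17 (adjusted p = 0.836, limma). Probe sets that carry the name Igkv6-14 thus ranged from 0.05 to 1.32 among those tested and give no single size for that segment, and the additional ones here are named after their values were seen.

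Igkc is the constant gene that all kappa chains share, and its probe sets disagreed. They are 3 in number and each names Igkc, Igkj1, Igkv6-23, Igkv4-53 and Igkv8-30. Probe set 1427455_x_at was at 12.94, 13.21 and 13.25 in the AKR hybrids and at 12.72, 12.65 and 12.43 in the DBA hybrids, and was called (0.53 ± 0.09, 1.45-fold, adjusted p = 0.00328, limma). Probe set 1427660_x_at was at 13.02, 13.32 and 13.31 against 13.32, 12.98 and 13.45, and differed by -0.03 ± 0.12 (adjusted p = 0.863, limma). Probe set 1452417_x_at was at 12.58, 12.79 and 12.80 against 12.94, 12.67 and 13.14, and differed by -0.19 ± 0.11 (adjusted p = 0.210, limma). Without DBA replicate 2 the last of these was called higher in the DBA hybrids (-0.32, adjusted p = 0.0386, limma). DBA replicate 3 was the lowest array of the first and the highest of the other two, so these probe sets do not agree on a direction for kappa constant RNA. Igkv8-30 (1452463_x_at), the brightest probe set for a V segment alone, was at 11.62, 11.88 and 11.96 against 11.55, 11.38 and 11.17. It differed by 0.45 ± 0.11 (adjusted p = 0.0143, limma) and ranked the arrays of each cross as the called Igkc probe set did. Without AKR replicate 2 it was not called (0.0529).

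Other kappa segments moved less or less evenly. Igkv4-68 (1427857_x_at) was at 6.09, 6.97 and 6.35 in the AKR hybrids and at 5.84, 5.87 and 5.58 in the DBA hybrids, a difference of 0.71 ± 0.20 (adjusted p = 0.0297, limma). It was called with all arrays and without AKR replicate 1, and was not called without AKR replicate 2 (0.0558), AKR replicate 3 (0.0505), DBA replicate 1 (0.0515), DBA replicate 2 (0.0618) or DBA replicate 3 (0.103). Igkv9-120 (1452536_s_at) was at 6.55, 7.18 and 6.78 against 6.40, 6.29 and 6.40, a difference of 0.47 ± 0.15 (adjusted p = 0.0422, limma). Its call too held only with all arrays or without AKR replicate 1, with adjusted p from 0.0736 without DBA replicate 1 to 0.118 without DBA replicate 2 (limma; 0.108 and 0.0756 without AKR replicates 2 and 3, 0.0912 without DBA replicate 3). A brighter Igkv9-120 probe set (1460423_x_at), at 8.15, 8.22 and 8.92 against 8.25, 7.91 and 7.87, overlapped and was not called (0.42 ± 0.19, adjusted p = 0.139, limma). The remaining called kappa probe set, shared by Igkv4-55 and Igkv4-68 (1426200_at), differed by 0.47 ± 0.10 (adjusted p = 0.00870, limma) and is named after its value was seen.

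A single array set apart 1 kappa probe set. The second Igk probe set (1425738_at) read 8.09, 10.02 and 8.48 in the AKR hybrids and 7.91, 7.96 and 7.81 in the DBA hybrids. AKR replicate 2 stood far above every other array, and the difference of 0.97 ± 0.39 was not called (adjusted p = 0.0979, limma). This probe set is named after its values were seen.

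Lambda light chains are the less used light chains of the mouse, and 0 of 3 tested probe sets were called. Iglv1 (1430523_s_at), a lambda V segment, was at 8.02, 8.90 and 9.24 in the AKR hybrids and at 8.22, 8.69 and 8.39 in the DBA hybrids. AKR replicate 1 was the lowest of all arrays and AKR replicate 3 the highest. The difference was 0.29 ± 0.27 (adjusted p = 0.450, limma), and it was 0.64 and called without AKR replicate 1 (adjusted p = 0.0185, limma). The probe set shared by Iglc1 and Iglv1 differed by 0.36 ± 0.28 and the other Iglv1 probe set by 0.09 ± 0.22, with adjusted p = 0.355 and 0.797 (limma), the latter named after its value was seen.

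Immunoglobulin probe sets varied more between arrays of 1 cross than other probe sets did. The median SD within a cross was 0.27 for the 36, against 0.12 over all tested probe sets. Between mean log2 levels of 6 and 8 the median SD was 0.35 for 18 immunoglobulin probe sets and 0.13 for all 11383. At levels of 10 and over it was 0.20 for 10 immunoglobulin probe sets and 0.08 for all 2820. These are descriptions, since probe sets of related segments share targets. AKR replicate 1 was the lowest AKR array for 27 of the 36, and DBA replicate 3 was the lowest DBA array for 20. AKR replicates 2 and 3 were the highest AKR array for 18 and 16.

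**Figure D4:**
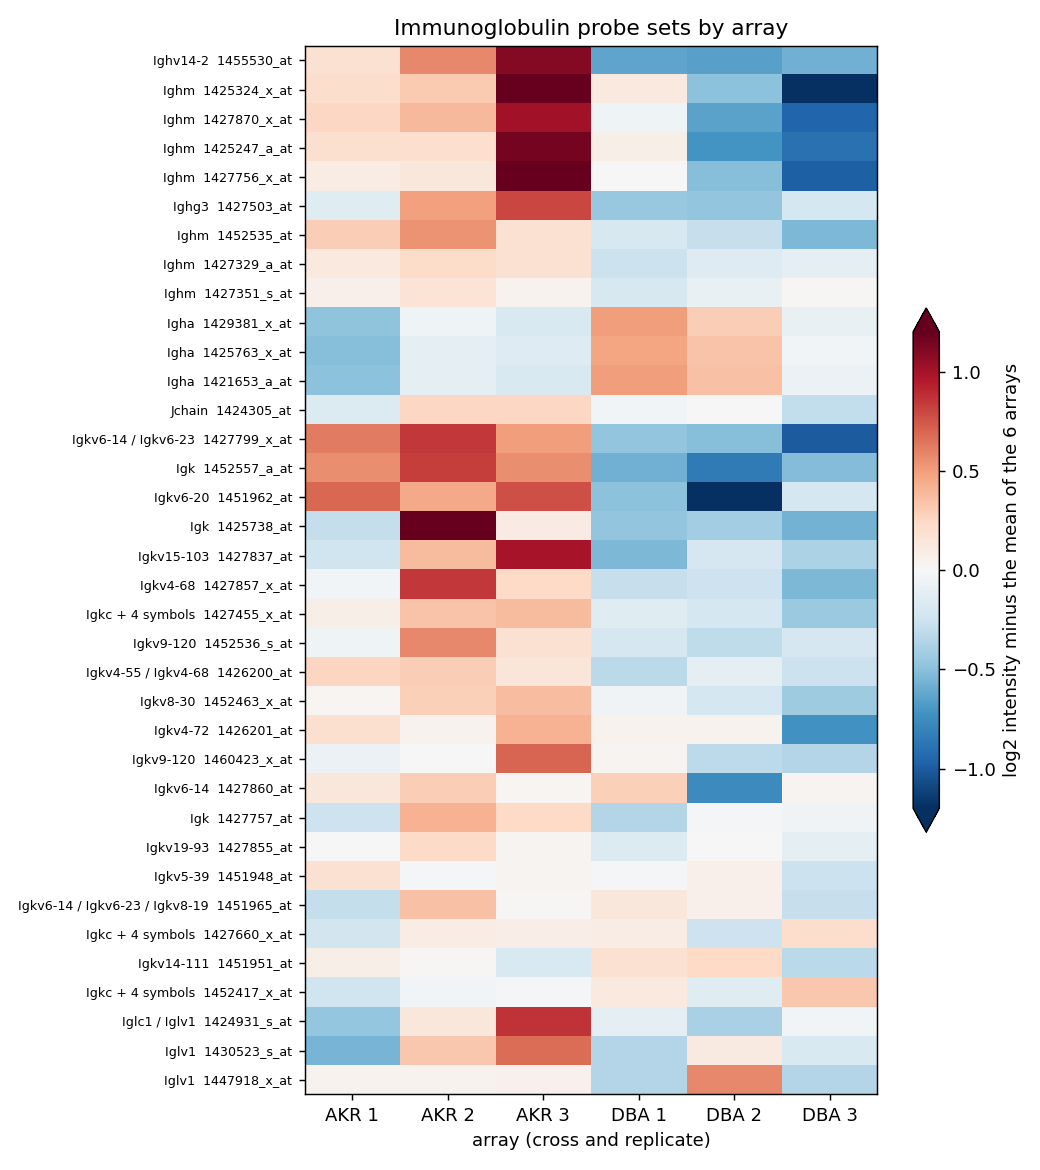
Log2 intensity of the 36 tested immunoglobulin probe sets (rows, by locus) on each of the 6 arrays (columns) as the distance from the mean of all 6, with red above it and blue below it. The Igha rows run against most others, and AKR replicate 1 is the lowest AKR array in 27 rows.

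The larger differences were found among dimmer probe sets. At a mean level of 10 and over, 4 of 10 were called higher in the AKR hybrids and 3 higher in the DBA hybrids, with differences from -0.52 to 0.53. Over all tested probe sets of that level the shares were 16.6% and 18.9%. At a mean level under 10, 12 of 26 were called higher in the AKR hybrids and 0 higher in the DBA hybrids, with differences from -0.06 to 1.32, against 11.7% and 14.6% of all tested probe sets of that level. The 7 called probe sets that differed by at least 2-fold lay in the dimmer group. Without 1427799_x_at, which passed the filter through its AKR arrays alone, they were 6, and the dimmer group held 11 calls of 25 with differences up to 1.30. Of all called probe sets, 9.93% differed by at least 2-fold. The 20 probe sets that failed the filter had values from 2.69 to 5.39 and differences from -0.12 to 0.82, with 18 of 20 above 0. They were 11 heavy chain, 8 kappa and 1 lambda probe sets, and the sizes of differences between such dim values are not exact. The share above 0 among all probe sets that failed the filter was not counted. The median difference was 0.03 over all 45037 probe sets and 0.01 over those tested.

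Some genes that mark B cells were also higher in the AKR hybrids. Of 15 tested B cell genes, 5 were called higher in the AKR hybrids, 1 was called higher in the DBA hybrids and 9 were not called, and the list median was 0.22. The background shares were 12.2% and 15.0%, and the median over all tested probe sets was 0.01. Cd79a, which encodes a signalling chain of the B cell receptor that holds membrane immunoglobulin, was at 8.20, 8.24 and 8.38 in the AKR hybrids and at 7.56, 7.67 and 7.36 in the DBA hybrids (0.74 ± 0.10, 1.67-fold, adjusted p = 0.00103, limma). Its partner Cd79b was at 8.48, 8.05 and 8.32 against 7.94, 7.87 and 7.71 (0.44 ± 0.12, adjusted p = 0.0233, limma). Both receptor chains had every AKR array above every DBA array, but Cd79b lost its call without AKR replicate 1 (0.0740), AKR replicate 3 (0.0645), DBA replicate 2 (0.0613) or DBA replicate 3 (0.0817). Cr2, complement receptor 2 (0.93 ± 0.11, adjusted p = 0.000478), and Cd22, an inhibitory coreceptor (0.52 ± 0.09, adjusted p = 0.00317), had the same direction in limma.

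Pax5, the transcription factor of B cell identity, was the fifth, at 0.43 ± 0.13 (adjusted p = 0.0428, limma). Its call was lost without any of AKR replicates 1, 2 and 3 (0.104, 0.0738 and 0.103) or DBA replicates 1 and 3 (0.102 and 0.0897). Blnk, an adaptor of receptor signalling, was the gene higher in the DBA hybrids (-0.31 ± 0.08, adjusted p = 0.0204, limma), and it was not called without AKR replicate 2 (0.0672) or DBA replicate 2 (0.0772). Ms4a1, which encodes CD20, read 7.74, 7.71 and 7.87 against 7.63, 7.81 and 7.78 and overlapped (0.03 ± 0.09, adjusted p = 0.818, limma). The summed linear intensity of the 15 genes was 2763 to 2910 on the AKR arrays and 2387 to 2486 on the DBA arrays, without overlap. It was 2387 on DBA replicate 1. The summed linear intensity of lymph node markers, over 5 tested genes of which 0 were called in limma, was 1905 to 1976 on the AKR arrays, 1961 on DBA replicate 1, and 1600 and 1507 on DBA replicates 2 and 3. Clu, at 10.14 to 10.40, was the brightest of these 5 genes on every array, and Fcer2a is in both lists, so the sum is not a measure of lymph node tissue alone. Fcer2a was not called on the probe set used for it, but another of its tested probe sets was called higher in the AKR hybrids. Clu and Fcer2a are named after their values were seen. The part of B cell number and of lymph node tissue in the immunoglobulin differences was not tested. The count of 5 was 3 without AKR replicate 1, without AKR replicate 3 or without DBA replicate 3. It was 4 without DBA replicate 1. Ms4a1 is named after its value was seen.

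Calls of plasma cell genes went both ways. Of 12 tested, 1 was called higher in the AKR hybrids, 2 higher in the DBA hybrids and 9 were not called, with a median of -0.01. Over all tested probe sets the shares called were 12.2% and 15.0%. The summed linear intensity of the 12 genes was 4326 to 4780 on the AKR arrays and 4970 to 4985 on the DBA arrays, without overlap. The brightest of the 12 on every array was Xbp1, so this sum is not a measure of plasma cells alone. A sum without Xbp1 was not taken. Xbp1, a transcription factor of secretory cells that many other cells also express, was at 11.37, 11.11 and 11.11 in the AKR hybrids and at 11.45, 11.51 and 11.53 in the DBA hybrids (-0.30 ± 0.07, adjusted p = 0.0166, limma). Its 3 other tested probe sets gave 2 calls, both higher in the DBA hybrids. Ell2, an elongation factor used in immunoglobulin secretion, was at 7.26, 7.38 and 7.22 against 7.86, 7.73 and 7.76 (-0.49 ± 0.09, 1.41-fold higher in the DBA hybrids, adjusted p = 0.00364, limma). Derl3, of protein quality control in the endoplasmic reticulum, was the one higher in the AKR hybrids (0.41 ± 0.12, adjusted p = 0.0281, limma). All 3 had groups that did not overlap. The Xbp1 call was lost without AKR replicate 2 (0.0599), AKR replicate 3 (0.0558), or DBA replicates 2 (0.0565) and 3 (0.0590), as was the Derl3 call without AKR replicate 2 (0.0850), DBA replicate 2 (0.0826) or DBA replicate 3 (0.0737). The count of 2 was 1 without AKR replicate 2, AKR replicate 3 or DBA replicate 2. It stayed at 2 without DBA replicate 1. Mzb1, a chaperone gene of IgM and IgA assembly, differed by 0.19 ± 0.08 (adjusted p = 0.123, limma) and is named after its value was seen.

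Of 10 tested genes of V(D)J assembly and of the surrogate light chain, 1 was called, against 27.2% of all tested probe sets. With so few genes this count does not set the list apart. The gene called was Nhej1 of DNA end joining, higher in the AKR hybrids (0.38 ± 0.11, adjusted p = 0.0288, limma). It was not called without AKR replicate 1 (0.0852), AKR replicate 2 (0.0930), DBA replicate 2 (0.0930) or DBA replicate 3 (0.0749). Rag1, a subunit of the recombinase that thymocytes use for their own receptor, was at 13.03, 12.88 and 13.06 against 13.04, 13.10 and 13.06 and was not called (-0.07 ± 0.05, adjusted p = 0.297, limma). Vpreb3 and Igll1, genes of B cell precursors, differed by 0.25 ± 0.12 and 0.03 ± 0.14 and were not called (adjusted p = 0.143 and 0.877, limma). Dntt was not called on the probe set used for it (0.03 ± 0.04, adjusted p = 0.629, limma), but another of its tested probe sets was called higher in the AKR hybrids. Vpreb3, Igll1, Dntt and Rag1 are named after their values were seen.

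Among 6 tested genes that bind or carry antibody, 1 was called in each direction. Over all tested probe sets, 12.2% were called higher in the AKR hybrids and 15.0% higher in the DBA hybrids. Fcgr2b, an inhibitory receptor for IgG, differed by -0.19 ± 0.09 (adjusted p = 0.150, limma) and was not called on the probe set used for it, but 2 of its 3 other tested probe sets were called higher in the DBA hybrids. It is named after its values were seen. Fcmr, the receptor for IgM, which B cells express, was at 7.63, 7.72 and 7.99 in the AKR hybrids and at 7.18, 7.20 and 7.38 in the DBA hybrids (0.53 ± 0.11, adjusted p = 0.00886, limma). Fcgr3, a receptor for IgG on myeloid cells, was at 7.42, 7.88 and 7.66 against 8.19, 8.30 and 8.15 (-0.56 ± 0.12, adjusted p = 0.00819, limma). Each call held with any single array left out, and neither gene's groups overlapped.

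**Figure D5:**
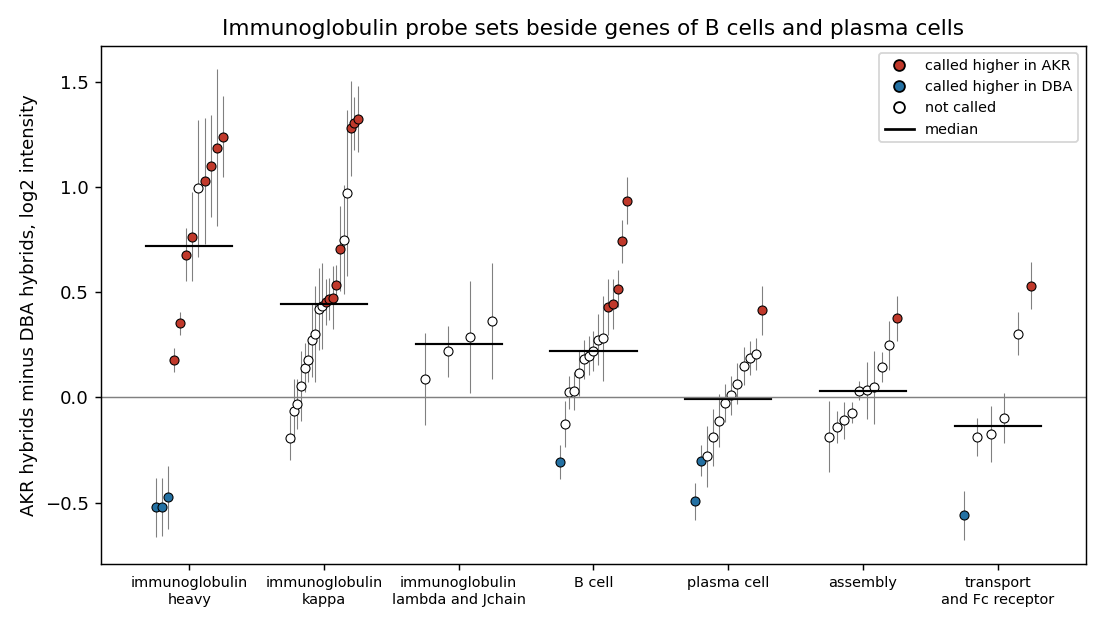
Difference between the crosses (y axis, AKR hybrids minus DBA hybrids, log2 intensity, bars of 1 SE from limma) for tested immunoglobulin probe sets by locus and for genes of 4 related lists, with red and blue for calls in the AKR and DBA direction and a line at each median. Heavy and kappa chains have medians of 0.72 and 0.44 with the Igha probe sets below 0, the B cell list 0.22 and the plasma cell list -0.01.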

How the data were processed

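The deposited table gave log2 values per probe set for 6 arrays. The submitters' processing notes list MAS5 and RMA with no role, so the tool behind these values is not known here. Array medians were 5.92 to 5.95. No further normalization was done. The 64 control probe sets were left out, and testing was limited to those above an array's 40th percentile on 3 or more arrays. The test was limma 3.58.1 (lmFit, then eBayes with a mean-variance trend; R 4.3.3), two-sided, at an adjusted p of 0.05, and its script was tested on simulated data. Figures used matplotlib 3.10.9.

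Symbols came from the platform annotation, and all 28 Entrez identifiers of the members matched a RefSeq table of assembly GRCm38.p6, used for names and segment counts only. Of the 56 probe sets, 13 carried several symbols and 27 had names ending in _x_at, _s_at or _a_at, Affymetrix's marks for probes shared between transcripts. A probe set with the symbol Igk-V21 fell outside the rule. A listed gene was represented by its brightest tested probe set with 1 symbol.

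Members and lists were chosen with earlier results of these data known. The text names called members, at most 12 in each direction, all tested probe sets of constant genes and Jchain, the brightest 3 of V segments, and called genes of 4 lists. Any other named gene was picked with its value in view, as stated beside it. Lists for thymocytes, epithelium, lymph node, muscle and fat served as checks. Alternatives were other filters, normalizations, a floor, variance models, weights per array, leaving out each array, dropping shared probe sets, and blocking on the replicate number.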

Additional observations from a re-analysis of the deposited data

How the results depend on the processing

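Of 35 immunoglobulin probe sets and list genes followed singly, all kept their sign under each of the alternatives that tested them. Of these 596 values, 490 stayed on the same side of the threshold, 95 lost a call and 11 gained one. Without sharing of variance between probe sets, 4 immunoglobulin probe sets were called higher in the AKR hybrids and 0 higher in the DBA hybrids. That setting called 3 B cell genes, 1 plasma cell gene and 3544 probe sets in all, 1595 of them higher in the AKR hybrids and 1949 higher in the DBA hybrids. Without probe sets shared between transcripts, 15 members were tested. Of these, 5 were called higher in the AKR hybrids and 0 higher in the DBA hybrids, since all Igha probe sets are of that kind. Among all 20496 probe sets then tested, 2273 and 3087 were called in these directions. In that setting 1 plasma cell gene was called. Robust variance estimation called 0 immunoglobulin probe sets higher in the DBA hybrids, against 4180 of all 27385 tested probe sets, and the cause was not tested. The filter at the 60th percentile left 3 B cell genes, since Cr2 and Pax5 were too dim to pass it. With 1 array left out, counts ran from 9 to 20 higher in the AKR hybrids, 0 to 3 higher in the DBA hybrids, 3 to 4 B cell genes, 1 to 2 plasma cell genes and 4946 to 6051 probe sets in all. The median difference over all tested probe sets was 0.01, and at most 0.05 under another scaling.

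With the replicate number as a block, 19 immunoglobulin probe sets were called higher in the AKR hybrids and 3 higher in the DBA hybrids, with 5 B cell genes and 2 plasma cell genes. In all 9839 probe sets were called, 4510 of them higher in the AKR hybrids and 5329 higher in the DBA hybrids. The deviations of same-numbered arrays correlated at 0.39, 0.07 and 0.37, and 5 of 6 arrays correlated best with their own number, a hint of pairing from the data. Since 1 of the 3 correlations (0.07) was not above 0.1 and no label ties the numbers, they were not taken as pairs. The number of arrays and the dimness of 20 of 56 probe sets limit what could be detected.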

Other observations

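Cxcl13, the chemokine that draws B cells into follicles, was at 7.28, 7.53 and 7.23 in the AKR hybrids and at 7.21, 6.53 and 7.32 in the DBA hybrids, and Madcam1, an addressin, was at 5.97, 6.04 and 6.16 against 5.96, 6.01 and 5.91. The fat gene Adipoq was at 9.38, 9.40 and 8.14 against 9.99, 8.95 and 8.97, lowest on AKR replicate 3. The muscle gene Acta1 was at 9.19, 9.28 and 6.09 against 11.99, 7.30 and 8.39. These 4 genes were not called (limma) and are named after their values were seen.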
